A study of Mus musculus with 9 samples.

Results

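The distal miRNAs of the imprinted Dlk1-Dio3 region of mouse chromosome 12, from miR-379 to miR-3072, were measured in whole embryonic mouse kidneys at day 16.5 of gestation. Members were found by name: every known mouse miRNA whose number is among 35 numbers of this stretch, in either arm and with any letter. That gave 75 names from 38 hairpins, of 1607 known miRNA names counted in the series. Small RNA was sequenced in 3 libraries labelled DROSHA knockout, 3 labelled DROSHA-E1147K transgene and 3 labelled wild type, which are the controls. DROSHA, a nuclear RNase III enzyme, cuts the hairpin precursor out of a primary miRNA transcript, and E1147K is an amino acid change in it that the series title calls oncogenic. The series concerns what losing or mutating DROSHA does to the kidney and to Wilms tumor, a childhood kidney cancer. The labels give no promoter or Cre for the knockout or the transgene, no strain and no allele or treatment shared by all groups, so every value describes a whole organ. Whether the replicate libraries are different animals is not labelled, and p-values then speak only for the spread among these libraries, technical or not.

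The Dlk1-Dio3 region is imprinted: its noncoding RNAs, among them Meg3, Rian and Mirg, are made from the chromosome inherited from the mother. The distal miRNAs, apart from miR-299b on the opposite strand, are cut from this long maternal transcript, which makes them products of DROSHA themselves. They are found in placental mammals, are abundant in brain and in embryonic tissues, and in mice have been tied to the adjustment of metabolism after birth. In the kidney, miR-379 and its neighbours have been studied in mesangial cells of diabetic mice.

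In the mm10 assembly the hairpins lie between positions 109709060 and 109747960 of chromosome 12, a stretch of 38.9 kb, with the same coordinates in RefSeq and in GENCODE vM21 for all 38. Mirg, annotated by GENCODE at 109729764 to 109749460 on the plus strand, contains 13 of them, from miR-382 to miR-3072. The other 25, from miR-379 on, lie before it. The hairpin of miR-299b lies on the minus strand, opposite miR-299a. Mature sequences were available from RefSeq (GRCm38.p6, the mm10 assembly) for 71 of the 75 names. They are shown because members of a single transcript need not share targets: bases 2 to 8 of the mature miRNA, the seed, guide target pairing. The seed is in capitals, and each sequence is written 5′ to 3′. The first group holds the most abundant members of the stretch.
miR-411-5p: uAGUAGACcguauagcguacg
miR-379-5p: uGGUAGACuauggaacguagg
miR-369-5p: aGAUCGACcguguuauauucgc
miR-541-5p: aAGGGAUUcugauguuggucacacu
miR-376a-3p: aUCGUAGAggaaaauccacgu
miR-154-5p: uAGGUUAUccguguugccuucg
miR-380-3p: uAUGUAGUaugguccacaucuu
miR-409-3p: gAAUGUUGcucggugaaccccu
miR-410-3p: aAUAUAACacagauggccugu

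The 71 sequences held 65 distinct seeds. 6 seeds were shared by 2 members each, and 0 by 3 or more, so most members carry a seed of their own. The second group shows 2 of the shared seeds, GGUAGAC of miR-379-5p and miR-1193-5p and AUGUAAC of the 3p arms of miR-379 and miR-411.
miR-1193-5p: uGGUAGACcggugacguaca
miR-379-3p: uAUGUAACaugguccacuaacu
miR-411-3p: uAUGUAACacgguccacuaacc
The miR-379-3p and miR-411-3p sequences differ at 2 positions over their whole length. In all, 13 pairs of members had 4 mismatches or fewer over the bases compared. miR-299a-3p and miR-299b-3p had 0 over 18 bases, and miR-299a-5p and miR-299b-5p had 0 over 21. Other pairs were miR-376b-5p and miR-376c-5p with 1, miR-376a-3p and miR-376b-3p with 3, and miR-300-3p and miR-381-3p with 3. How a read was assigned to a name is not stated, so reads could have been split within such pairs and their separate values are uncertain.

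Known miRNAs received 24350500 to 34896599 reads per library. At least 1 read was counted for 74 of the 75 members in all 9 libraries. The exception was miR-654-3p, with 1 read in control 2 and 0 in the other libraries. Levels are given in CPM, the reads of a miRNA per 1e6 miRNA reads after TMM scaling, and differences are log2 fold changes from edgeR's quasi-likelihood fit over 955 tested miRNAs. A filter on low counts kept 70 members and dropped miR-679-5p, miR-382-3p, miR-299b-5p, miR-544-5p and miR-654-3p. Libraries of each group differed from each other by more than read sampling gives, and none was counted as a repeat of another. Small RNA sequencing does not cover Drosha mRNA, which leaves the genotype labels unchecked. The miRNA lists for tubule, ureteric epithelium, mesenchyme and endothelium had reads for every marker in all 9 libraries. The knockout 3 library was the highest of its group for most members, and counts without it are given beside the main ones.

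The distal miRNAs together took 2.70%, 3.56% and 7.08% of the miRNA reads of the 3 knockout libraries, and 2.96%, 4.30% and 2.89% in the 3 transgene libraries, against 1.79%, 1.96% and 2.003% in the 3 control libraries. All 6 DROSHA libraries lay above all 3 controls. The knockout 3 and transgene 2 libraries were the highest of their groups. The mean share was 4.45% ± 2.32 in knockout kidneys, 3.38% ± 0.793 in transgene kidneys and 1.92% ± 0.115 in controls (SD, n = 3 each), which is 2.32 times the control mean for the knockout and 1.77 times for the transgene. A sum over chosen members carries no test. Their counting intervals are far narrower than the gaps between libraries. In bulk tissue, more cells of a kind and more of each miRNA per cell cannot be told apart. Shares and CPM are also relative to a library's other miRNA reads, so either can rise where other miRNAs fall. Absolute amounts per kidney were not tested.

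**Figure D1:**
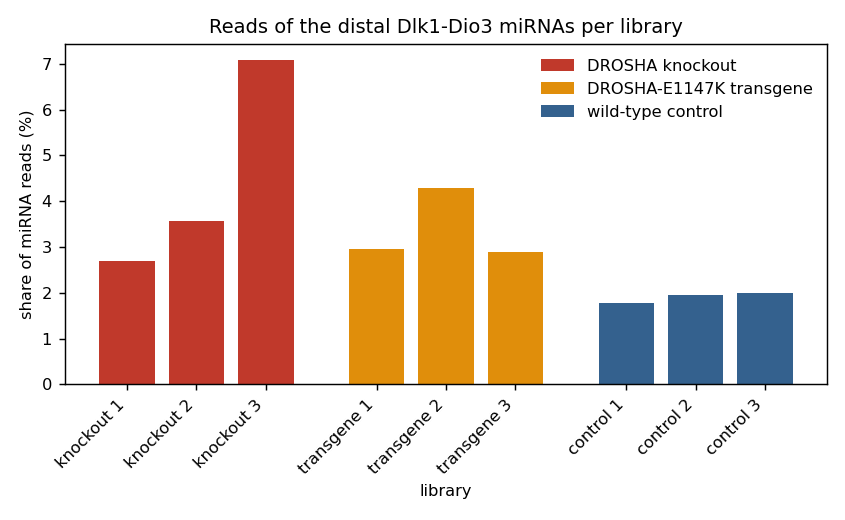
Share of all known miRNA reads, in percent, that belonged to the 75 distal Dlk1-Dio3 miRNAs, 1 bar per library, by group. All 6 DROSHA libraries stand above the controls, which lie between 1.79% and 2.003%, and knockout 3 is the highest at 7.08%.

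A few names supplied most of these reads. miR-411-5p and miR-379-5p held 41.5% of the distal reads in knockout kidneys, 44.2% in transgene kidneys and 49.6% in controls. The 10 most abundant members held 76.0% in knockout kidneys, 77.1% in transgene kidneys and 80.9% in controls. Without the top pair, the share was 2.64% ± 1.51 in knockout kidneys, 1.90% ± 0.56 in transgene kidneys and 0.964% ± 0.0912 in controls. The remaining members were thus further above the controls, at 2.74 times for the knockout and 1.97 times for the transgene, than the sum led by that pair. In controls 4 members averaged over 1000 CPM, 26 over 100 CPM and 30 under 10 CPM.

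Knockout against control asks how these miRNAs stand when DROSHA is lost. All 70 tested members had a positive log2 fold change, with a median of 1.33 and a range of 0.23 to 2.27. The median over all 955 tested miRNAs was -0.03, and 48.9% of them were positive. By edgeR with Benjamini-Hochberg adjustment, 0 of the 70 members passed an adjusted p of 0.05, against a background of 0% of all tested miRNAs, and the lowest adjusted p was 0.108. At an unadjusted p under 0.05, 59 members were higher and 0 were lower, beside 15.6% of all tested miRNAs called higher and 10.1% called lower. The 3 knockout libraries lay above the 3 controls without overlap for 46 members, beside 12.9% of all, and below them for 0, beside 15.6% of all. DESeq2 called 30 members at an adjusted p under 0.05, all higher, beside 10.9% of all tested miRNAs. Without knockout 3, the members' median was 0.79, 69 of 70 were positive and 37 were higher at an unadjusted p under 0.05, beside 11.6% of all tested then. Without knockout 1, edgeR called 25 members at an adjusted p under 0.05, all 25 higher, beside 4.8% of all tested then.

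Transgene against control asks the same of the mutant enzyme, with the same 3 controls. All 70 tested members were again positive, with a median of 0.80 and a range of 0.35 to 2.23, while the median of all tested miRNAs was -0.04 and 46.7% were positive. edgeR called 0 members at an adjusted p under 0.05, beside 0% of all, with a lowest adjusted p of 0.398. At an unadjusted p under 0.05, 21 members were higher and 0 lower, beside 5.24% of all called higher and 3.56% called lower. The groups did not overlap for 46 members, all higher, beside 11.9% of all higher and 12% lower. DESeq2 called 1 member, miR-667-5p, beside 0.419% of all. Without transgene 2, the median was 0.65 and 6 of 71 members then tested were higher at an unadjusted p under 0.05, beside 2.61% of all tested then. A log2 fold change over 1 was reached by 57 members, or 81.4%, in the knockout comparison, beside 16.3% of all tested miRNAs, and by 26, or 37.1%, in the transgene comparison, beside 8.59% of all. The 4 tested members miR-1197-5p, miR-3072-5p, miR-544-3p and miR-758-5p did not reach the filter's level of 0.368 CPM in all controls and so entered the test through libraries where they were higher. All 4 are among the 57 and the 26 with a log2 fold change over 1. Of them, miR-1197-5p and miR-758-5p are also among the members that DESeq2 called for the knockout. Over the other 66, the counts at an unadjusted p under 0.05 were 56 for the knockout and 18 for the transgene, and the members without overlap with the controls were 43 for the knockout and 44 for the transgene.

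Knockout against transgene sets the lost enzyme against the mutant one directly. Here 63 of 70 members were positive, with a median of 0.42 and a range of -1.19 to 1.04, beside a median of 0.05 for all tested miRNAs and 53.1% positive. edgeR called 0 members at an adjusted p under 0.05, beside 0.105% of all, and 1 at an unadjusted p under 0.05, beside 3.46% of all called higher and 3.56% lower. This was miR-134-3p, which was also the only member whose groups did not overlap, beside 4.4% of all higher and 5.97% lower. Without knockout 3 the median was -0.05 and 30 of 70 members were positive, so the sign of the difference between the DROSHA groups rests on that library.

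**Figure D2:**
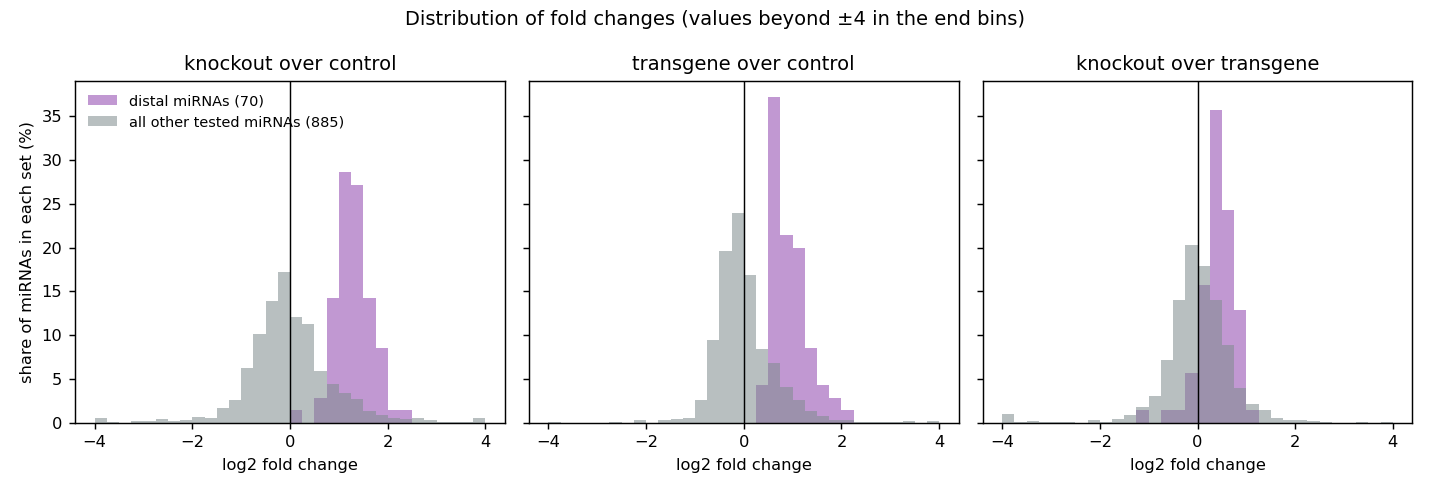
Log2 fold changes of the 70 tested distal miRNAs and of the 885 other tested miRNAs, as the percent of each set per bin of the log2 fold change, in 3 panels for knockout over control, transgene over control and knockout over transgene. The distal set lies to the right of zero in the first 2 panels, with medians of 1.33 and 0.80, and nearer to zero in the last, with a median of 0.42.

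The libraries differed in how far their members stood above the control mean. Over the 70 tested members, the median log2 difference from the control mean was 0.53 in knockout 1, 0.89 in knockout 2 and 1.98 in knockout 3. It was 0.71 in transgene 1, 1.13 in transgene 2 and 0.50 in transgene 3. All 70 members exceeded all controls in knockout 3 and in transgene 2, against 52 and 57 members in knockout 1 and 2, and 57 and 56 in transgene 1 and 3. Within its group, knockout 3 was highest for 67 of the 70 members and transgene 2 for 59. Most members were thus high in the same libraries. miR-539-5p lay below all controls in knockout 1 and 2, and miR-376a-5p and miR-377-5p did so in knockout 2.

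The most abundant member was miR-411-5p, which stood at 6202, 9683 and 15965 CPM in knockout kidneys and at 9355, 8392 and 6833 CPM in transgene kidneys, against 5689, 5710 and 6184 CPM in controls. All DROSHA libraries were above all controls, and knockout 1 was nearest to them. The log2 fold change was 0.86 (SE 0.31, unadjusted p = 0.0228, edgeR Benjamini-Hochberg adjusted p = 0.16) for the knockout and 0.48 (SE 0.31, unadjusted p = 0.154, adjusted p = 0.613) for the transgene. The second most abundant, miR-379-5p, whose hairpin opens the stretch and which has been studied in mouse mesangial cells, stood at 4020, 5850 and 10353 CPM in knockout kidneys and 6389, 7056 and 4349 CPM in transgene kidneys, against 3753, 6269 and 3914 CPM in controls. Control 2 was above 3 of the 6 DROSHA libraries, and the groups overlapped. Its log2 fold changes of 0.54 (SE 0.37) for the knockout and 0.35 (SE 0.37) for the transgene were among the lowest of the members. The opposite arm, miR-379-3p, did not overlap in either comparison, at 316, 391.9 and 699 CPM in knockout kidneys and 465, 480 and 328 CPM in transgene kidneys, against 262, 231 and 224 CPM in controls. Its log2 fold change was 0.97 (SE 0.32) for the knockout and 0.83 (SE 0.32) for the transgene.

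miR-369, a hairpin near the end of the stretch whose products were in a miRNA mix used to reprogram mouse cells, supplied abundant reads from both arms. The hairpin is printed because its 2 arms stood apart from each other; it lies at chr12:109743418-109743496 on the plus strand, and the capitals mark the 5p arm and then the 3p arm.
Mir369: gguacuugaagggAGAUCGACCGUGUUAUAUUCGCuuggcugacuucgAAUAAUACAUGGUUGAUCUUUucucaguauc
The mature 3p arm, with its seed in capitals, is the following.
miR-369-3p: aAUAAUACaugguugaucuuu
miR-369-3p stood at 440, 579 and 1700 CPM in knockout kidneys and 599, 846 and 495 CPM in transgene kidneys, against 238, 242 and 222.97 CPM in controls. Every DROSHA library was above the controls, which lay close together. The log2 fold change was 1.95 (SE 0.49, unadjusted p = 0.00336, edgeR adjusted p = 0.108) for the knockout and 1.46 (SE 0.48, unadjusted p = 0.0146, edgeR adjusted p = 0.529) for the transgene. Without knockout 3 the knockout value was 1.22. miR-369-5p, at 1155, 2143 and 4400 CPM in knockout kidneys and 2044, 1867 and 1455 CPM in transgene kidneys, against 1245, 1040 and 1212 CPM in controls, overlapped with the controls through knockout 1. It gave 1.14 (SE 0.42) for the knockout and 0.62 (SE 0.42) for the transgene.

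**Figure D3:**
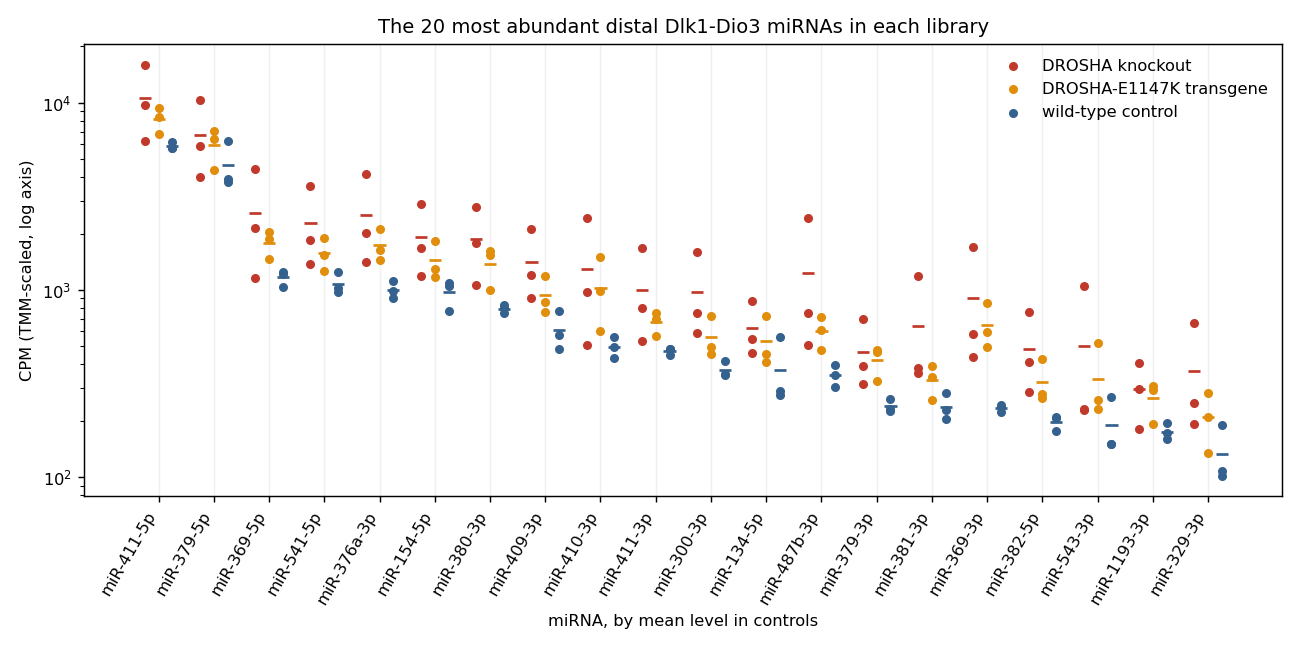
Level in CPM, on a log axis, of the 20 most abundant distal miRNAs in controls, with a point for each library and a line for each group mean. For miR-369-3p the controls sit between 222.97 and 242 CPM and all DROSHA libraries at 440 CPM or more, while for miR-379-5p the groups overlap.

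The smallest unadjusted p-values against control belonged to members of low or middling level. miR-667-5p had few reads, at 2.73, 2.40 and 5.0 CPM in knockout kidneys and 2.39, 3.91 and 2.68 CPM in transgene kidneys, against 0.817, 0.875 and 1.07 CPM in controls. Each DROSHA library held over 2 CPM and no control did. The log2 fold change was 1.87 (SE 0.37, unadjusted p = 0.000747, edgeR adjusted p = 0.108) for the knockout and 1.70 (SE 0.37, unadjusted p = 0.00137, edgeR adjusted p = 0.398) for the transgene, with DESeq2 adjusted p-values of 0.00271 and 0.0113. miR-666-3p stood at 89.0, 135 and 200 CPM in knockout kidneys and 100, 159 and 84.0 CPM in transgene kidneys, against 40.1, 29.3 and 65.6 CPM in controls. It too was clear of the controls in both groups, and its log2 fold change was 1.65 (SE 0.43, unadjusted p = 0.00409) for the knockout and 1.34 (SE 0.43, unadjusted p = 0.0119) for the transgene, at edgeR adjusted p-values of 0.108 and 0.529. miR-758-3p, which restrains the cholesterol exporter ABCA1 in macrophages, stood at 27.7, 38.0 and 73.9 CPM in knockout kidneys and 25.7, 43.4 and 25.4 CPM in transgene kidneys, against 15.4, 14.96 and 13.7 CPM in controls. All DROSHA libraries were above the controls, and the log2 fold change was 1.66 (SE 0.40) for the knockout and 1.10 (SE 0.39) for the transgene. The rarer arm, miR-758-5p, was under 1.3 CPM in every library, and under the filter's level in all 3 controls. It was tested only because 5 of the 6 DROSHA libraries reached that level, so its log2 fold changes, 2.0 for the knockout and 1.70 for the transgene, are given as a description.

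miR-134 limits the size of dendritic spines in rat neurons through its target Limk1. Its rarer arm miR-134-3p stood at 76.8, 107 and 125 CPM in knockout kidneys and 72.5, 63.0 and 64.0 CPM in transgene kidneys, against 42.0, 40.8 and 57.4 CPM in controls. The 3 groups did not overlap at all: knockout kidneys were highest, transgene kidneys between and controls lowest. The log2 fold change was 1.14 (SE 0.27, unadjusted p = 0.00216, edgeR adjusted p = 0.108) for knockout over control, 0.51 (SE 0.26, unadjusted p = 0.086) for transgene over control and 0.63 (SE 0.26, unadjusted p = 0.0411, edgeR adjusted p = 0.652) for knockout over transgene. The knockout value was 1.07 without knockout 3, which makes it less dependent on that library than the members' median. The main arm miR-134-5p, at 458, 545 and 868 CPM in knockout kidneys and 411, 728 and 456 CPM in transgene kidneys, against 274, 561 and 289 CPM in controls, overlapped through control 2.

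The miR-376 family is known for A-to-I editing of its precursors in brain, which can move the seed to other targets. The deposited counts carry no separate names for edited forms. miR-376a-3p stood at 1410, 2007 and 4134 CPM in knockout kidneys and 1640, 2102 and 1453 CPM in transgene kidneys, against 987, 901 and 1110 CPM in controls. Neither DROSHA group overlapped with the controls, and the log2 fold changes were 1.33 (SE 0.37, unadjusted p = 0.00638, edgeR adjusted p = 0.108) for the knockout and 0.79 (SE 0.37, unadjusted p = 0.0617) for the transgene. miR-376b-3p, which differs from it at 3 positions, stood at 188, 159 and 839 CPM in knockout kidneys and 203, 522 and 241 CPM in transgene kidneys, against 96.4, 86.5 and 164 CPM in controls. Knockout 3 and transgene 2 were the highest of their groups. The knockout log2 fold change of 1.77 (SE 0.68) was 0.67 without knockout 3, and the transgene value of 1.48 (SE 0.68) was 1.01 without transgene 2.

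Other abundant members stood between these. miR-541-5p had a log2 fold change of 1.07 (SE 0.35) for the knockout and 0.53 (SE 0.35) for the transgene, with no overlap of either group with the controls. The same held for miR-154-5p, at 0.98 (SE 0.34) for the knockout and 0.56 (SE 0.34) for the transgene, and for miR-380-3p, at 1.24 (SE 0.35) for the knockout and 0.80 (SE 0.34) for the transgene. miR-411-3p gave 1.09 (SE 0.38) for the knockout and 0.52 (SE 0.38) for the transgene, also without overlap. miR-409-3p, which lowers fibrinogen production in human liver cells, gave 1.20 (SE 0.35) for the knockout and 0.62 (SE 0.35) for the transgene, and its transgene libraries overlapped the controls. miR-410-3p stood at 509, 969 and 2412 CPM in knockout kidneys and 982, 1493 and 602 CPM in transgene kidneys, against 559, 493.3 and 435 CPM in controls. Knockout 1 was within the control range for it, and the log2 fold change was 1.39 (SE 0.54) for the knockout, or 0.68 without knockout 3, and 1.05 (SE 0.54) for the transgene. At the far end, miR-3072-3p stood at 31.5, 24.7 and 38.6 CPM in knockout kidneys and 16.9, 29.1 and 22.8 CPM in transgene kidneys, against 9.77, 11.5 and 20.3 CPM in controls. Only the knockout was clear of the controls, and the fold change was 1.19 (SE 0.36) for the knockout and 0.73 (SE 0.36) for the transgene on the log2 scale.

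Several high folds rested on knockout 3 or transgene 2. miR-487b-3p stood at 506, 756 and 2435 CPM in knockout kidneys and 611, 715 and 475 CPM in transgene kidneys, against 395, 304 and 351 CPM in controls, and its knockout log2 fold change of 1.81 (SE 0.53) was 0.95 without knockout 3. Its knockout over transgene difference, 1.04 (SE 0.52, unadjusted p = 0.0787), was the largest of the members and was 0.10 without knockout 3. miR-154-3p stood at 95.5, 154 and 439 CPM in knockout kidneys and 132, 522 and 123.7 CPM in transgene kidneys, against 59.8, 63.7 and 88.1 CPM in controls. All DROSHA libraries were higher, yet the knockout value of 1.70 (SE 0.71) was 0.92 without knockout 3 and the transgene value of 1.88 (SE 0.71) was 0.93 without transgene 2. miR-377-3p, which in human and mouse mesangial cells lowers superoxide dismutases, stood at 29.4, 15.1 and 140 CPM in knockout kidneys and 36.9, 152 and 44.2 CPM in transgene kidneys, against 22.2, 12.6 and 30.02 CPM in controls. Its knockout log2 fold change was 1.51 (SE 0.86) with all libraries and 0.12 without knockout 3, and the transgene value was 1.85 (SE 0.87) with all libraries and 0.97 without transgene 2. miR-485-3p had 10.8, 7.37 and 46.4 CPM in knockout kidneys and 5.44, 22.4 and 8.15 CPM in transgene kidneys, against 6.0, 4.71 and 6.70 CPM in controls, and its knockout value was 1.89 (SE 0.76) with all libraries and 0.73 without knockout 3.

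For knockout over transgene, miR-381-3p had a log2 fold change of 0.96 (SE 0.46), miR-412-5p 0.92 (SE 0.51), miR-381-5p 0.90 (SE 0.54), miR-485-3p 0.84 (SE 0.74) and miR-300-3p 0.81 (SE 0.37). Without knockout 3 these were 0.19 for miR-381-3p, 0.14 for miR-412-5p, -0.092 for miR-381-5p, -0.37 for miR-485-3p and 0.30 for miR-300-3p. At the other end, among members with a mean of at least 10 CPM, stood miR-539-5p with -0.56 (SE 0.79) and miR-377-3p with -0.34 (SE 0.84). Next came miR-154-3p with -0.18 (SE 0.69), miR-323-5p with -0.10 (SE 0.45) and miR-379-3p with 0.14 (SE 0.32). In all of these the groups overlapped, and each edgeR adjusted p was 0.652 or higher. Against controls, miR-300-3p and miR-381-3p gave 1.38 (SE 0.38) and 1.43 (SE 0.46) for the knockout and 0.57 (SE 0.37) and 0.47 (SE 0.46) for the transgene, and the knockout value of miR-381-3p was 0.73 without knockout 3. This pair differs at 3 positions, so their separate values are uncertain. miR-323-3p gave 1.73 (SE 0.55) for the knockout, or 0.87 without knockout 3, and 0.97 (SE 0.54) for the transgene. Its other arm gave 1.06 (SE 0.45) for the knockout and 1.16 (SE 0.45) for the transgene. Low folds for the knockout were also found in miR-134-5p, at 0.74 (SE 0.39), miR-1193-3p, at 0.75 (SE 0.33), and for the transgene in miR-299a-3p, at 0.51 (SE 0.34). miR-299a-3p matches miR-299b-3p over all 18 bases compared, so its separate value is uncertain.

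The lowest knockout fold belonged to miR-539-5p, which in mouse heart cells lowers the mitochondrial protein prohibitin 2. It stood at 4.46, 4.56 and 39.2 CPM in knockout kidneys and 20.3, 35.6 and 15.5 CPM in transgene kidneys, against 14.6, 12.9 and 13.5 CPM in controls. Knockout 1 and 2 were below all controls and knockout 3 above them, so the log2 fold change of 0.23 (SE 0.79, edgeR adjusted p = 0.873) is a mean of opposite differences, and it was -1.51 without knockout 3. The other arm, miR-539-3p, had 7.90, 2.04 and 26.0 CPM in knockout kidneys and 5.91, 9.15 and 7.64 CPM in transgene kidneys, against 1.70, 2.0 and 3.75 CPM in controls. Its log2 fold change of 2.27 (SE 0.79, edgeR adjusted p = 0.147) for the knockout was the highest of the 70 members with all libraries and 1.08 without knockout 3. Knockout 2 was within the control range for this arm.

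The members before Mirg and those within it differed little in their medians. The 45 tested members before Mirg had a median log2 fold change of 1.39 for the knockout and 0.80 for the transgene. The 25 within Mirg had 1.20 for the knockout and 0.76 for the transgene. The lower quartile of the 70 members was 1.06 for the knockout and 0.60 for the transgene. At the miR-379 end of the stretch, miR-379-5p, miR-411-5p, miR-299a-3p and miR-299b-3p lay under it in both comparisons. miR-379-3p did so for the knockout only, miR-411-3p for the transgene only, and miR-299a-5p in neither. By arm and by level the knockout medians also lay close together, while the transgene medians were higher for the less abundant. The more abundant arms had medians of 1.38 for the knockout and 0.76 for the transgene, and the less abundant arms 1.33 for the knockout and 0.88 for the transgene. By mean level, the knockout medians were 1.31 at 100 CPM or more, 1.40 from 10 to 100 CPM and 1.21 under 10 CPM, and the transgene medians were 0.77, 0.80 and 1.03 for these levels. All tested members of each of these sets were positive in both comparisons. The set under 10 CPM holds the 4 members that entered the test through libraries where they were higher. Its medians and signs therefore partly reflect that filter. Of these members, miR-1197-5p, miR-3072-5p and miR-758-5p are also among the less abundant arms. Over the 66 members that reached the filter's level in all 3 controls, the medians were 1.27 for the knockout and 0.80 for the transgene. The proximal miRNAs of the same imprinted region, with 29 of 33 names tested, stood close to the distal ones, with medians of 1.18 for the knockout and 0.82 for the transgene. All 29 were positive in both, 22 were higher at an unadjusted p under 0.05 for the knockout and 6 for the transgene. The proximal miRNAs took 2.81% ± 1.28 of miRNA reads in knockout kidneys, 2.17% ± 0.50 in transgene kidneys and 1.08% ± 0.151 in controls.

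**Figure D4:**
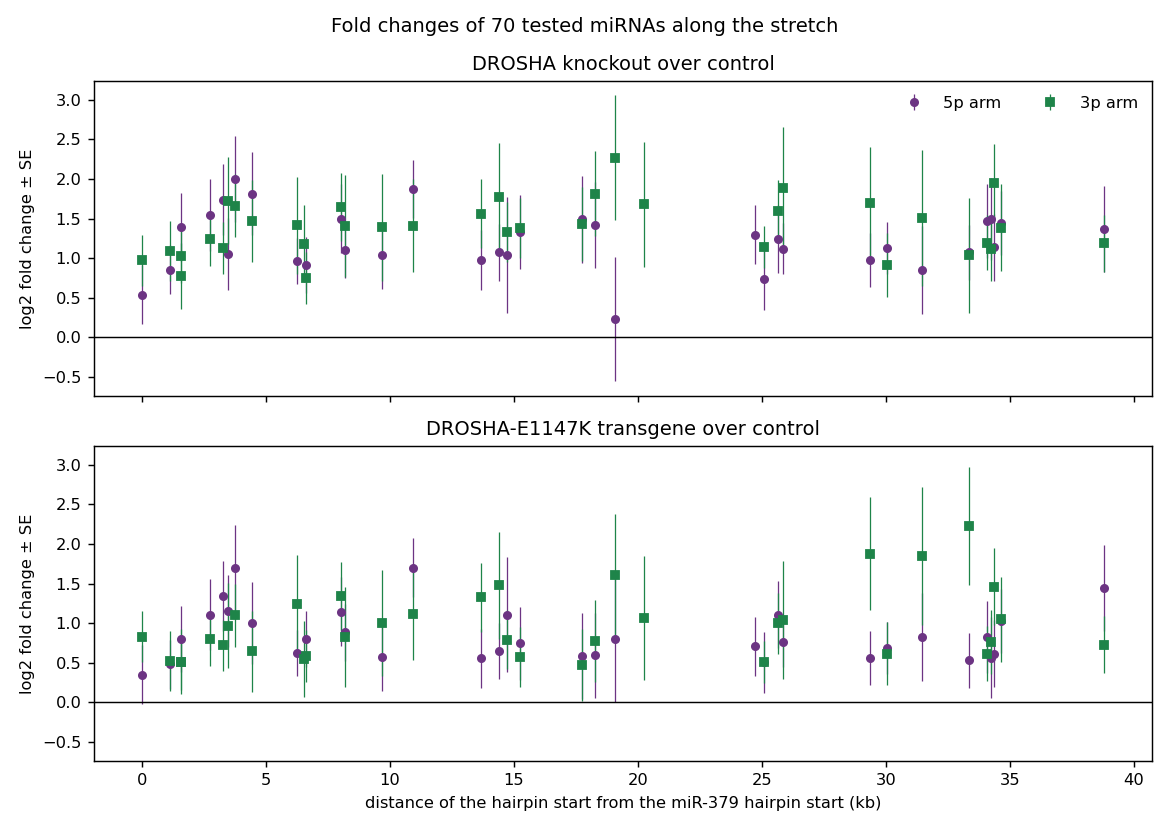
Log2 fold change with its SE for each of the 70 tested members against the distance in kb of its hairpin from the start of the miR-379 hairpin, with 5p and 3p arms marked apart, for knockout over control above and transgene over control below. All points lie above zero along the 38.9 kb. At the miR-379 end, miR-379-5p, miR-411-5p, miR-299a-3p and miR-299b-3p lie under the lower quartile of the members in both panels.

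A primary transcript cut by DROSHA yields both arms of a hairpin in equal number, and the later choice of arm sets which arm accumulates. Of the 34 hairpins with at least 100 reads in every library, 24 gave mostly 3p reads in all 9 libraries, 8 gave mostly 5p reads and 2, miR-412 and miR-539, changed between libraries. For 20 hairpins over 90% of reads came from a single arm. The median 3p share was 92.1% in knockout kidneys, 91.8% in transgene kidneys and 90.8% in controls. In each comparison with controls the groups did not overlap for 5 hairpins (3 higher and 2 lower in 3p share), or 14.7% of 34, beside 13.9% of 259 other hairpins for the knockout and 10.8% for the transgene. The share of hairpins whose arm use stood apart was thus near that of other miRNAs.

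miR-369 was the hairpin whose 3p share was above the controls in both groups, at 27.6%, 21.3% and 27.9% in knockout kidneys and 22.7%, 31.2% and 25.4% in transgene kidneys, against 16.1%, 18.9% and 15.5% in controls. Every DROSHA library was above every control, with means of 25.6% ± 3.72 in knockout kidneys, 26.4% ± 4.36 in transgene kidneys and 16.8% ± 1.8 in controls (SD, n = 3 each). The 5p arm stayed the larger in all 9. For miR-539 the 3p share was 63.9%, 30.9% and 39.9% in knockout kidneys and 22.6%, 20.4% and 33.0% in transgene kidneys, against 10.4%, 13.4% and 21.7% in controls, at no fewer than 162 reads of both arms in a library. The 3p arm was the larger in knockout 1 alone. For miR-154 the share was 7.47%, 8.39% and 13.2% in knockout kidneys and 9.23%, 22.2% and 9.51% in transgene kidneys, against 7.16%, 5.71% and 7.48% in controls, so transgene 2 stood out. miR-412 averaged 39.2% in knockout kidneys, 45.1% in transgene kidneys and 42.6% in controls, with groups that overlapped. Against controls, miR-412-5p gave log2 values of 1.49 (SE 0.52) for the knockout, or 0.77 without knockout 3, and 0.57 (SE 0.51) for the transgene, and miR-412-3p gave 1.12 (SE 0.40) for the knockout and 0.76 (SE 0.40) for the transgene.

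**Figure D5:**
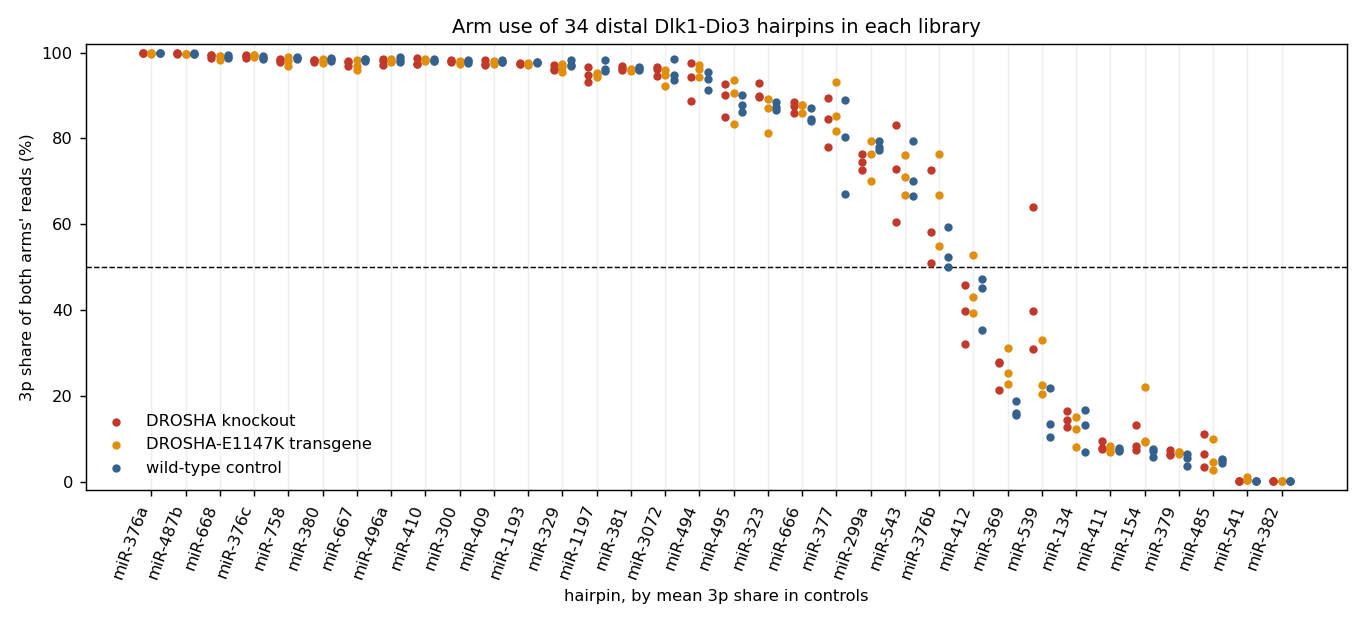
Share of reads of both arms, in percent, that came from the 3p arm, for 34 distal hairpins ordered by their mean in controls, with a point for each library. Most hairpins lie near the top or the bottom with all 9 libraries together, while miR-369 has all DROSHA libraries between 21.3% and 31.2% and the controls between 15.5% and 18.9%.

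Markers of other cells also differed between libraries. The 7 muscle miRNAs summed to 2073, 458 and 10510 CPM in knockout libraries and 1641, 826 and 468 CPM in transgene libraries, against 1254, 287 and 221 CPM in controls, and the heart miRNA miR-208a-3p was at 0 in some libraries. The highest sum was in knockout 3, the library with the highest distal levels. In the transgene group the muscle sum was highest in transgene 1, but the distal share was highest in transgene 2. The muscle sum of control 1 was above those of knockout 2 and transgene 2. The 7 neuron miRNAs ranged from 2423 to 7074 CPM in knockout libraries and 2364 to 4319 CPM in transgene libraries, against 2238 to 4646 CPM in controls, again with the highest in knockout 3. In knockout 1 and 2 the neuron sum lay within the control range. By the mean log2 level of the 7 markers, knockout 3, at 8.92, and transgene 2, at 8.10, were above the controls, at 5.57 to 7.76. The other DROSHA libraries lay within that range. Within the transgene group, miR-124-3p, miR-137-3p, miR-138-5p and miR-219a-5p peaked in transgene 2, and miR-9-5p, miR-128-3p and miR-7b-5p in transgene 1. The most abundant neuron marker, miR-9-5p, was at its lowest in knockout 3, at 668 CPM against 1715 to 2489 CPM in controls. Each other marker of the neuron list was highest in knockout 3. The 4 pancreas, liver and endocrine miRNAs ranged from 2032 to 23830 CPM in knockout libraries and 10190 to 25870 CPM in transgene libraries, against 2855 to 13330 CPM in controls, with the highest sum of each DROSHA group in knockout 3 and transgene 2. The transgene 2 sum was mostly miR-122-5p, at 19080 CPM. Within the transgene group, miR-375-3p and miR-802-5p peaked in transgene 3 and miR-7a-5p in transgene 1. By the mean log2 level of the 4 markers, transgene 3, at 10.51, was above transgene 2, at 10.32. Knockout 1 was below all controls for that list.

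The 4 erythroid miRNAs ranged from 71660 to 112200 CPM in knockout libraries and 27200 to 79980 CPM in transgene libraries, against 21370 to 52280 CPM in controls. The sum, led by miR-451a, was above the controls in all knockout libraries, but by the mean log2 level of the 4 markers knockout 2, at 9.47, was below control 2, at 9.48. The 5 leukocyte miRNAs summed to between 560 and 1420 CPM in knockout libraries and 566 and 1297 CPM in transgene libraries, against 481 and 883 CPM in controls. The highest sum of each DROSHA group was in knockout 3 and transgene 2. Means of miR-142a-3p were 393 CPM in knockout kidneys, 390 CPM in transgene kidneys and 170 CPM in controls. Those of miR-142a-5p and miR-223-3p were also higher in both DROSHA groups. In contrast, miR-155-5p had means of 77.9, 93.2 and 120 CPM, in that order. The means of miR-150-5p were 95.4, 62.6 and 161 CPM, with 378 CPM in control 2. The sums of the kidney epithelial lists stood lower in DROSHA kidneys than in controls. The 5 tubule miRNAs ranged from 2726 to 3221 CPM in knockout libraries and 3563 to 4530 CPM in transgene libraries, against 5082 to 8549 CPM in controls. The 5 miRNAs of ureteric and tubule epithelium ranged from 12880 to 30390 CPM in knockout libraries and 22190 to 34060 CPM in transgene libraries, against 35400 to 40210 CPM in controls. Not all of them were lower. Means of miR-200c-3p were 3420 CPM in knockout kidneys, 3118 CPM in transgene kidneys and 2975 CPM in controls, and those of miR-141-3p 255, 243 and 264 CPM. The 8 mesenchyme and stroma miRNAs ranged from 96050 to 146700 CPM in knockout libraries and 119900 to 189400 CPM in transgene libraries, against 180200 to 195900 CPM in controls. That sum was led by miR-10a-5p, with means of 44390 CPM in knockout kidneys, 62420 CPM in transgene kidneys and 97860 CPM in controls. In contrast, miR-199a-3p had means of 13100, 16490 and 3245 CPM, and miR-214-3p 2111, 2026 and 1499 CPM, in that order. By the mean log2 level of the 8 markers the groups overlapped. It was 12.76 to 13.24 in knockout libraries, 12.85 to 13.05 in transgene libraries and 12.78 to 13.03 in controls. The 2 endothelial miRNAs ranged from 34550 to 48790 CPM in knockout libraries and 36660 to 45590 CPM in transgene libraries, against 45280 to 56510 CPM in controls, so these groups overlapped. The part of each of these in the distal miRNAs' levels was not tested.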

How the data were processed

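Small RNA reads of 9 whole-kidney libraries were deposited as counts per small RNA name, and the deposited TPM values, not used for tests, are those counts per 1e6 of the library total, per the file headers. CASAVA 1.8, Bowtie2 and the mm10 build appear in the submitters' processing notes. Libraries were grouped by their titles and genotype labels. Members and lists were chosen with earlier results of these data known.

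Counts of known mouse miRNAs went into edgeR 4.0.16 (R 4.3.3): TMM factors (0.882 to 1.13), filterByExpr, 955 miRNAs, all 9 libraries with group as the factor, the quasi-likelihood F test and Benjamini-Hochberg adjustment over all 955 at 0.05. The common biological coefficient of variation was 0.489. An SE is the log2 fold change divided by the square root of F. Alternatives were DESeq2 1.42.0, other scalings, filters and prior counts, the replicate block and leaving out libraries. The fit was tested on simulated data. Reads carry no molecular identifiers, so intervals on shares (Wilson, 95%) cover counting error only. Named miRNAs were the 10 most abundant in controls, per comparison the 5 highest and 5 lowest folds at a mean of at least 10 CPM and the 3 smallest p-values, the ends of the stretch, and hairpins that changed their main arm; miR-376a-5p, miR-377-5p and the miR-154 and miR-369 hairpins were named after their values were seen. No shared seed had 3 or more members. Sequences are RefSeq's.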

Additional observations from a re-analysis of the deposited data

Results flagged for a closer look

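Besides the named mature miRNAs, the files hold reads counted to Rfam families, which no comparison above uses. Reads of the Rfam family mir-299 stood at 15.95, 10.1 and 23.2 per 1e6 in knockout libraries and 9.19, 14.2 and 18.6 per 1e6 in transgene libraries, against 8.07, 7.38 and 9.55 per 1e6 in controls. The means were 16.41 in knockout kidneys, 13.97 in transgene kidneys and 8.33 in controls, and the item stands here because every knockout library lay above every control in data outside the main measurement. Transgene 1 overlapped the controls. The family mir-134 overlapped between groups, with means of 5.99 per 1e6 in knockout kidneys, 4.73 in transgene kidneys and 2.07 in controls.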

How the results depend on the processing

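Across the other settings tried, and 1 added after seeing the data (without both knockout 3 and transgene 2), the members' median log2 fold change kept its direction, at 0.80 to 1.53 for knockout over control, 0.64 to 1.02 for transgene over control and 0.15 to 0.49 for knockout over transgene. Leaving out 1 library at a time moved the knockout over transgene median between -0.052 and 0.62. Scaled by total miRNA counts, all tested miRNAs had a median of 0.19 for knockout over control and 0.18 for transgene over control. edgeR's count of members past the threshold was 0 in each comparison. DESeq2 gave 30 for knockout over control and 1 for transgene over control, and leaving out 1 library gave 0 to 25 for knockout over control. The knockout over control value of miR-539-5p was -0.27 with the replicate block and -1.50 without both libraries, and -1.51 to 0.66 leaving out 1 library at a time. For knockout over transgene, miR-379-3p was -0.14 without both libraries. Leaving out 1 library there gave -0.23 to 0.31 for it, -1.02 to 0.78 for miR-154-3p, -0.67 to 0.15 for miR-323-5p, -1.78 to 0.51 for miR-377-3p, -0.092 to 1.24 for miR-381-5p and -0.37 to 1.59 for miR-485-3p. The cause was not tested. With the 2 most abundant members left out, the share of miRNA reads was 1.90% in transgene kidneys and 0.964% in controls. With all members kept, the share of all counted reads was 1.56% in controls. With at least 1000 reads a hairpin, the median 3p share was 93.6% in knockout kidneys and 92.2% in controls. Leaving out 1 library gave 90.6% to 93.4% in knockout kidneys, 90.9% to 92.8% in transgene kidneys and 90.1% to 91.8% in controls. Same-numbered libraries of different groups correlated at -0.302 to 0.102, over 0.1 in 1 of 9 pairs. This showed no pairing by number, but with 3 libraries in a group it cannot exclude one. With the replicate block the medians were 1.21 for knockout over control, 0.82 for transgene over control and 0.36 for knockout over transgene, and edgeR called 0 members in each.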
